A study of Mus musculus with 4 samples.

Results

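The genes described here are 10 angiogenic and vascular growth factors and receptors, which were picked by gene name: the ligands Vegfa, Vegfb, Pdgfa, Pdgfb, Hgf and Hbegf, the receptors Flt1 and Nrp1, and the secreted regulators Angptl4 and Thbs1. All 10 were found among the 54532 genes of the count tables, and all 10 were among the 13811 protein-coding genes that were tested. RNA was sequenced from 4 cultures of primary microglia, the resident macrophages of the brain, grown from the cortex of newborn male CD1 mice. There were 2 EGCG cultures, given 1 µM epigallocatechin gallate (a green tea flavan-3-ol) for 24 h, and 2 Vehicle cultures, given the solvent DMSO for 24 h. All 4 had been expanded with GM-CSF in mixed glia, were separated from the astrocyte layer by trypsin, and were kept in serum-free medium with IL-34, TGFβ2, GM-CSF and cholesterol, so the cells were cultured microglia and not cells taken directly from brain. Each replicate number (1 or 2) stands for 1 EGCG and 1 Vehicle library, which were deposited together in a table of their own.

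VEGF-A, encoded by Vegfa, is the main signal by which tissues short of oxygen call for new vessels. It binds the receptor tyrosine kinases VEGFR1 (Flt1) and VEGFR2 (Kdr), the latter being the main signalling receptor of endothelium, while macrophages and microglia are known to carry VEGFR1. PDGF-A and PDGF-B recruit mesenchymal and mural cells around vessels, HGF acts through the receptor MET, HB-EGF acts through EGFR and ERBB4, and thrombospondin 1 (Thbs1) is an inhibitor of angiogenesis that binds CD36 and CD47.

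Total counts ranged from 33805071 to 54970300 reads per library, and the EGCG library of replicate 2 was 1.51 times as deep as its Vehicle library. Levels are given as FPKM, the normalised reads scaled to gene length and library size, which allows genes to be compared, and differences between libraries are given on the log2 scale. All 11 markers of microglia were detected, with a summed level between 6151 and 9729 CPM (counts scaled to library size alone). The markers of stromal and mural cells stood apart in 1 library, at a summed 6.74 CPM in EGCG replicate 1 against 457 CPM in its Vehicle library, while the Vehicle and EGCG libraries of replicate 2 had 167 and 190 CPM. Of their 9 tested genes, 8 were lower in EGCG than in Vehicle in replicate 1 and 4 in replicate 2, and the collagen gene Col1a1 had 4 reads in EGCG replicate 1 but 3962, 1344 and 2040 in the other libraries. The gene that was not lower in replicate 1 was Pdgfra, at 4.40 CPM in EGCG and 3.72 CPM in Vehicle. None of the 9 was called between EGCG and Vehicle by edgeR. Astrocyte markers summed to between 13.7 and 19.4 CPM, with 5 of 6 tested genes lower in EGCG in replicate 1, and those of the oligodendrocyte lineage to between 118 and 156 CPM. Endothelial markers summed to between 17.9 and 41.0 CPM, and 6 of the 10 were tested. Cldn5 and Emcn, which define brain endothelium, had 0 reads in all 4 libraries. Pecam1 had 2 and 3 reads in the Vehicle and EGCG libraries of replicate 1 but 580 and 741 in those of replicate 2, while Ly6c1 had 1071 and 1037 reads against 16 and 59. Cdh5 had 79 and 26 reads in the Vehicle and EGCG libraries of replicate 1, and 34 and 13 in those of replicate 2. The log2 fold change of Cdh5 in edgeR was -1.75 with the replicate number as a term beside treatment (unadjusted p = 0.00584). With treatment alone it was -1.68 (unadjusted p = 0.138), and neither fit called Cdh5 at an adjusted p under 0.1. In bulk RNA, fewer cells of a type and less RNA per cell cannot be told apart.

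**Figure D1:**
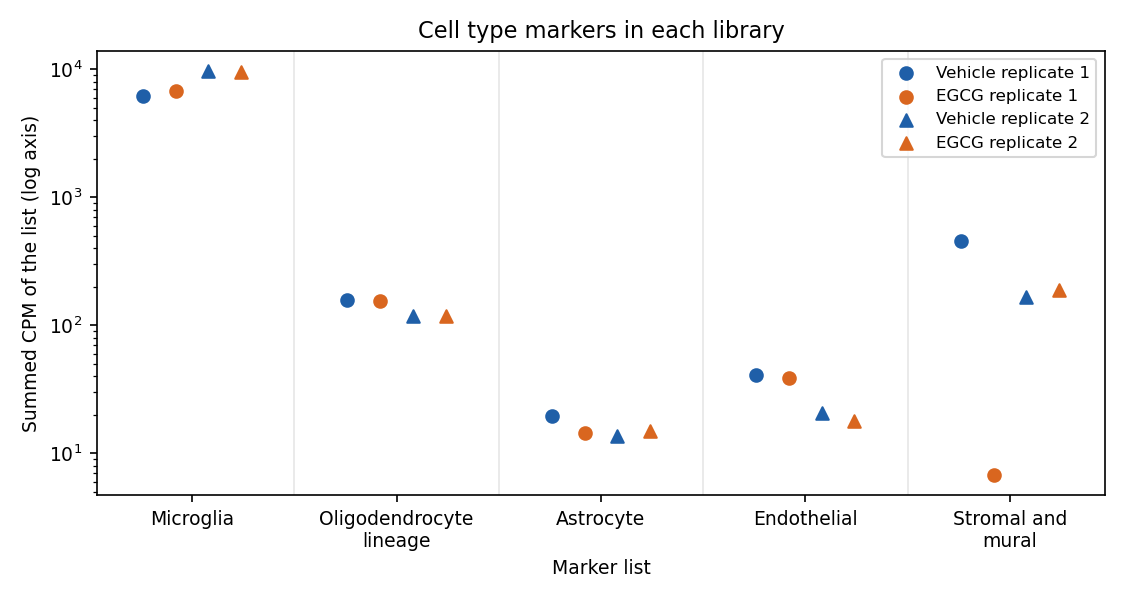
Summed CPM (log axis) of 5 marker lists in each of the 4 libraries, blue for Vehicle and orange for EGCG, circles for replicate 1 and triangles for replicate 2. The stromal and mural list lies at 6.74 CPM in EGCG replicate 1 and between 167 and 457 CPM in the other libraries.

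The most abundant of the 10 transcripts was Nrp1, which encodes neuropilin 1, a co-receptor for VEGF-A and semaphorins, at a mean of 32.1 ± 6.59 FPKM (SD over the 4 libraries). Pdgfb followed at 27.0 ± 2.39 FPKM, and then Thbs1 at 19.2 ± 17.3, Pdgfa at 12.3 ± 5.98 and Vegfb at 11.5 ± 0.98. Flt1 was at 8.66 ± 4.96 FPKM, Hbegf at 8.05 ± 3.44, Vegfa at 7.52 ± 3.64 and Hgf at 6.02 ± 1.51. Angptl4, which encodes a secreted inhibitor of lipoprotein lipase, was lowest at 1.23 ± 0.89 FPKM. Only Angptl4 was separated from its neighbour in this order in all 4 libraries. Each other pair of neighbours had overlapping ranges, and in each the order held in 2 of the 4 libraries. The order followed the replicate number: Nrp1, Pdgfb, Pdgfa and Flt1 led in both libraries of replicate 1, whereas Thbs1, Pdgfb, Nrp1 and Vegfb led in both libraries of replicate 2. Among the 13811 genes tested, the 10 transcripts ranked between place 1161 and place 10847 by FPKM, and their counts ran from 42 to 14514 reads per library.

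**Figure D2:**
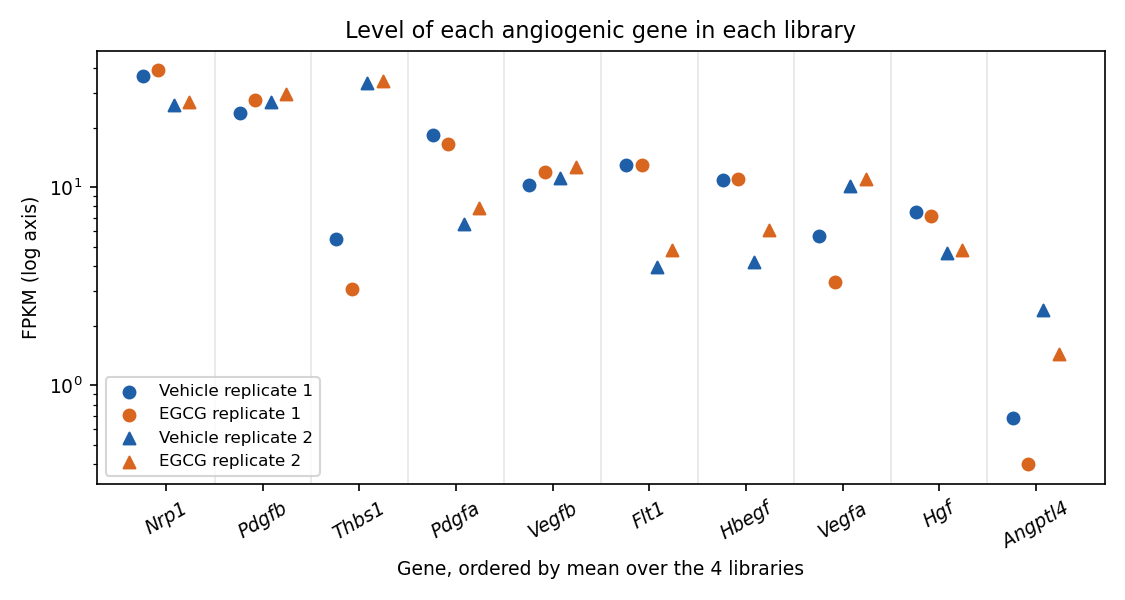
FPKM (log axis) of the 10 genes in each of the 4 libraries, ordered by their mean, blue for Vehicle and orange for EGCG, circles for replicate 1 and triangles for replicate 2. Circles and triangles lie apart for 8 of the 10 genes, while blue and orange lie apart for 2.

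None of the 10 genes passed the adjusted threshold between EGCG and Vehicle in any fit. With treatment as the only term, edgeR called 0 of 10 genes at an adjusted p under 0.1, against 0% of all genes tested, and 0 at an unadjusted p under 0.05, against 0.116%. DESeq2 with treatment alone also called 0 at either threshold. The smallest unadjusted p of edgeR was 0.277, for Vegfb, and the median log2 fold change was 0.02 for the 10 genes and 0.01 for all genes tested. The libraries of a replicate number resembled each other, so a second fit took that number as a block. It called 0 of 10 genes at an adjusted p under 0.1 (0.00724% of all genes), with adjusted p between 0.99 and 1.00. At an unadjusted p under 0.05 it called Angptl4 and Pdgfb, against 3.21% of all genes (2.12% higher and 1.09% lower in EGCG), and DESeq2 with the same block called neither (1.11% of all genes) and 0 at an adjusted p under 0.1 (0.0507% of all genes). Whether the response to EGCG differed between the 2 replicates could not be tested, since such a fit leaves no spread to measure.

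Angptl4 (ENSMUSG00000002289, chromosome 17 of GRCm38, 33773750 to 33781575) had 74 reads with Vehicle and 42 with EGCG in replicate 1, and 288 and 262 reads in replicate 2, where the EGCG library was the deeper. This was 0.69 and 0.40 FPKM in replicate 1 and 2.39 and 1.45 FPKM in replicate 2. EGCG was the lower library within each replicate, although the groups overlapped because replicate 2 was higher as a whole. The ratio of EGCG to Vehicle was 0.58 in replicate 1 (95% exact interval 0.39 to 0.86) and 0.60 in replicate 2 (0.51 to 0.72), intervals which cover counting error alone. The log2 fold change was -0.73 with treatment alone (standard error 0.93) and -0.75 with the replicate block (standard error 0.17, 95% interval -1.18 to -0.32, unadjusted p = 0.0059 in edgeR and 0.0555 in DESeq2). It was the only one of the 10 genes that was lower in EGCG in both replicates, as were 20.6% of all genes tested.

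Pdgfb (ENSMUSG00000000489, chromosome 15, 79995874 to 80014977), which encodes the B chain of PDGF, was at 23.8 FPKM with Vehicle and 27.6 with EGCG in replicate 1, and 27.0 and 29.5 FPKM respectively in replicate 2. Both EGCG libraries were above both Vehicle libraries. Its log2 fold change was 0.17 in either fit, with a standard error of 0.14 with treatment alone and 0.05 with the block (95% interval 0.04 to 0.30, unadjusted p = 0.0211 in edgeR and 0.0813 in DESeq2). Vegfb (ENSMUSG00000024962, chromosome 19, 6982473 to 6987651), a VEGFR1 ligand that is a weak angiogenic factor, had the same pattern. Its level went from 10.3 with Vehicle to 11.9 FPKM with EGCG in replicate 1, and from 11.2 to 12.6 FPKM in replicate 2, a log2 fold change of 0.19 in either fit (unadjusted p = 0.0567 with the block in edgeR). The groups did not overlap for these 2 of the 10 genes, nor for 11.9% of all genes tested. EGCG was above Vehicle in both cases, as for 6.39% of all genes, and the reverse order, seen for 5.51%, was found for 0 of the 10.

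Vegfa (ENSMUSG00000023951, chromosome 17, 46016993 to 46032369) was at 5.65 FPKM with Vehicle against 3.34 with EGCG in replicate 1, and at 10.2 against 10.9 FPKM in replicate 2. EGCG was thus lower in replicate 1, by a log2 difference of -0.75, and 0.11 higher in replicate 2. The log2 fold change was -0.14 with treatment alone (95% interval -2.03 to 1.74) and -0.29 with the block (-0.79 to 0.21). Without EGCG replicate 2 it was -1.27 with treatment alone. That fit set EGCG replicate 1 against the Vehicle libraries of both replicates, so its value also holds the difference between replicates. Thbs1 (ENSMUSG00000040152, chromosome 2, 118111876 to 118127133) had the same pattern, with 1094 reads under Vehicle and 595 under EGCG in replicate 1, compared with 7505 and 11587 reads in replicate 2. EGCG minus Vehicle came to -0.84 on the log2 scale within replicate 1 and to 0.04 within replicate 2, and with the block the log2 fold change was -0.34 (95% interval -0.85 to 0.16). The library low in both genes, EGCG replicate 1, was the one in which the stromal and mural markers were at 6.74 CPM against 457 CPM. The astrocyte gene Gja1 had 1 read there against 160 in its Vehicle library. Aldh1l1, the most abundant of the astrocyte markers, was not lower, with 383 reads against 339, and the summed astrocyte level was 14.4 against 19.4 CPM. The part of those cells in the values of Vegfa and Thbs1 was not tested.

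The smallest unadjusted p of the other 5 genes in either edgeR fit was 0.109, for Hbegf with the block. Hbegf (ENSMUSG00000024486, chromosome 18, 36504929 to 36515805) was at 10.9 FPKM with Vehicle and 11.0 with EGCG in replicate 1, and at 4.18 and 6.10 FPKM in replicate 2. EGCG was 0.54 higher than Vehicle on the log2 scale within replicate 2 and 0.01 higher within replicate 1, where the sign turned under the 3 other scalings tried. Pdgfa (ENSMUSG00000025856, chromosome 5, 138976014 to 138997370) was at 18.3 and 16.6 FPKM in the Vehicle and EGCG libraries of replicate 1 and at 6.52 and 7.83 FPKM in those of replicate 2, with opposite directions of -0.14 and 0.26. Hgf (ENSMUSG00000028864, chromosome 5, 16553495 to 16620152) was at 7.52 and 7.13 FPKM in the libraries of replicate 1 and at 4.64 and 4.81 FPKM in those of replicate 2. The blocked fit bounded its log2 fold change between -0.17 and 0.15. For the receptors, that interval was -0.06 to 0.19 for Nrp1 (ENSMUSG00000025810, chromosome 8, 128358604 to 128503363) and -0.06 to 0.34 for Flt1 (ENSMUSG00000029648, chromosome 5, 147561604 to 147726011). With TMM scaling, 4 of the 10 genes were higher in EGCG in both replicates, 1 was lower in both and 5 had opposite directions, against 29.9%, 20.6% and 49.2% of all genes. These counts were 3, 1 and 6 under each of the 3 other scalings.

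**Figure D3:**
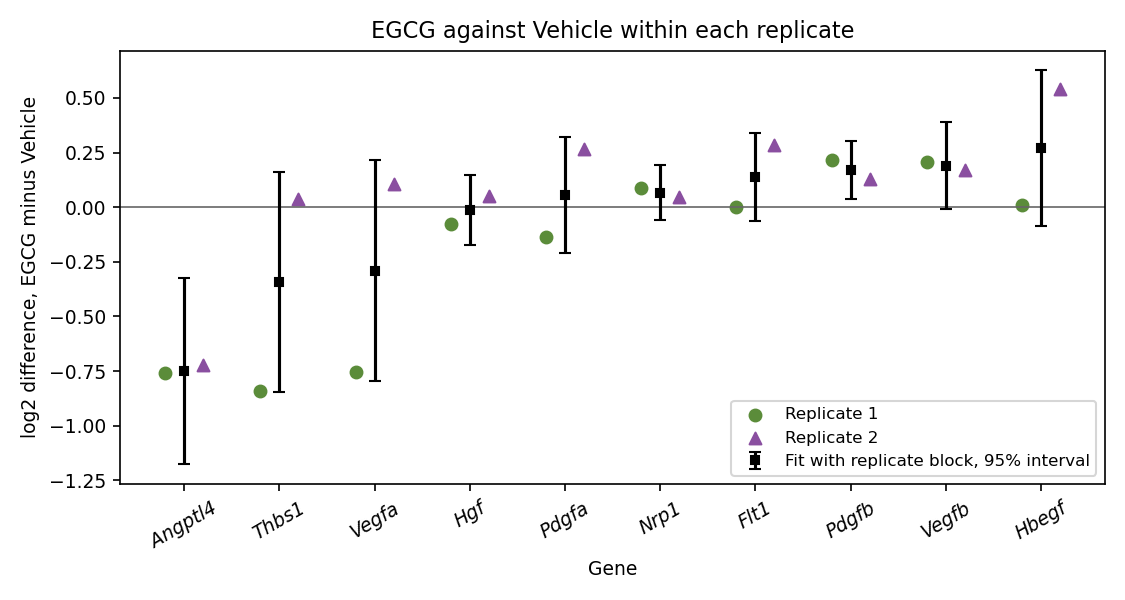
log2 difference between EGCG and Vehicle for each gene within replicate 1 (green circles) and replicate 2 (purple triangles), with the estimate of the edgeR fit with the replicate block and its 95% interval (black). Angptl4 lies near -0.75 in both replicates, while Thbs1 and Vegfa lie at -0.84 and -0.75 in replicate 1 and at 0.04 and 0.11 in replicate 2.

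In the blocked fit, the 2 replicates differed from each other by more than EGCG differed from Vehicle, except for Vegfb and Pdgfb. For these the log2 differences were 0.10 and 0.14 between replicates, against 0.19 and 0.17 between EGCG and Vehicle. With treatment kept as a term, edgeR called 9 of the 10 genes between replicates at an adjusted p under 0.1, against 53.5% of all genes tested. DESeq2 called 8 of the 10, against 4969 of the 13811 genes tested. Of the 9 called by edgeR, 4 were higher in replicate 2 (27.7% of all genes) and 5 were lower (25.7% of all genes). The median size of the log2 difference was 1.19 for the 10 genes and 0.36 for all genes, whereas between EGCG and Vehicle it was 0.18 and 0.08 in the blocked fit. The libraries of replicates 1 and 2 did not overlap for 8 of the 10 genes, nor for 76.5% of all genes, with replicate 2 the higher for 3 (39.2% of all genes) and the lower for 5 (37.4%). The nearest libraries were over 2-fold apart for 4 of them, Thbs1, Flt1, Pdgfa and Angptl4, against 12% of all genes. Since each replicate number had its own count table, biological replicate and table processing cannot be told apart.

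Cell markers differed between replicates as well. All 11 microglia markers were called, 7 higher in replicate 2 (such as C1qa by 0.93 and Csf1r by 0.96 on the log2 scale) and 4 lower. Of the 6 endothelial markers tested, 1 was higher (Pecam1, 7.51) and 3 were lower (among them Ly6c1, -5.40), and the part of these in the differences of the 10 genes was not tested.

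The regulators and Vegfa were higher in replicate 2. Thbs1 was at 5.49 and 3.06 FPKM in the Vehicle and EGCG libraries of replicate 1 and at 33.7 and 34.6 FPKM in those of replicate 2, 6.14-fold higher between the Vehicle libraries and 11.3-fold between the EGCG libraries. Its log2 difference was 3.04 (standard error 0.21, adjusted p = 0.000446). Angptl4 was 3.48-fold higher between the Vehicle libraries and 3.62-fold between the EGCG libraries, a log2 difference of 1.83 (standard error 0.17, adjusted p = 0.00107). For Vegfa the folds were 1.80 and 3.27, and the log2 difference was 1.27 (standard error 0.20, adjusted p = 0.00582). The fold between EGCG libraries was the larger for Thbs1 and Vegfa, the genes that were low in EGCG replicate 1. Without Vehicle replicate 2, Angptl4 (log2 difference 1.42) and Vegfa (1.30) were no longer called, and Vegfa (1.18) was not called without EGCG replicate 2.

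The receptors and the ligands Pdgfa, Hbegf and Hgf were higher in replicate 1. Flt1 was at 13.0 and 12.9 FPKM in the Vehicle and EGCG libraries of replicate 1 but at 3.95 and 4.81 FPKM in those of replicate 2, a log2 difference of -1.57 (standard error 0.08, adjusted p = 0.000212). Nrp1 was at 36.6 and 38.9 FPKM in replicate 1 and at 26.0 and 26.9 FPKM in replicate 2, a smaller log2 difference of -0.51 (adjusted p = 0.00117). The log2 differences were -1.28 for Pdgfa (adjusted p = 0.000744), -1.11 for Hbegf (adjusted p = 0.00285) and -0.63 for Hgf (adjusted p = 0.00131). Pdgfb and Vegfb differed least. Pdgfb was 0.14 higher in replicate 2 (95% interval 0.01 to 0.27, adjusted p = 0.0846 in edgeR but 0.345 in DESeq2), and Vegfb was 0.10 higher, within an interval of -0.10 to 0.30.

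**Figure D4:**
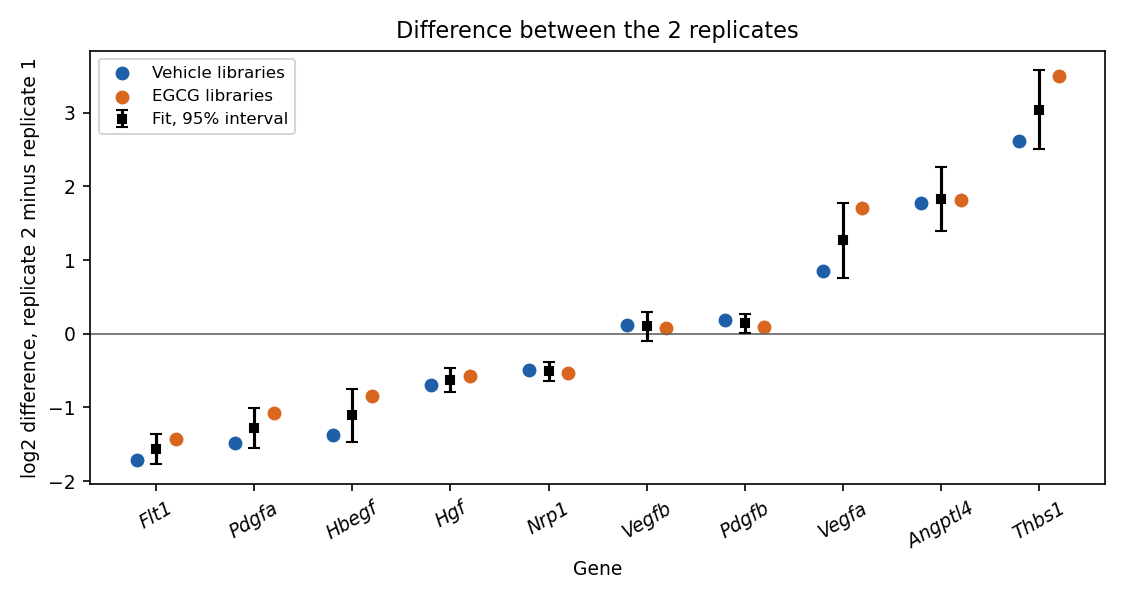
log2 difference between replicate 2 and replicate 1 for each gene in the Vehicle libraries (blue) and the EGCG libraries (orange), with the estimate of the edgeR fit and its 95% interval (black). Flt1, Pdgfa, Hbegf, Hgf and Nrp1 lie below 0 and Vegfa, Angptl4 and Thbs1 above 0, with the interval of Vegfb crossing 0.

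The ligand Vegfa and its receptors Flt1 and Nrp1 therefore differed in opposite directions between replicates. The FPKM of Vegfa was 0.44 times that of Flt1 in Vehicle replicate 1 and 0.26 times in EGCG replicate 1, but 2.57 and 2.28 times in the Vehicle and EGCG libraries of replicate 2. The ratio of Pdgfb to Pdgfa moved likewise, from 1.30 and 1.67 in replicate 1 to 4.15 and 3.77 in replicate 2. The 250 bases before the RefSeq start of these 3 VEGF genes (GRCm38.p6) are shown because the transcripts of this ligand and its receptors differed in opposite directions. Capitals mark the core of the hypoxia response element (ACGTG or GCGTG), the GC box (GGGCGG), the TATA box (TATAAA) and the cAMP response element (TGACGTCA), on either strand, and no matches of different motifs overlapped.
Vegfa, chr17:46032378-46032627, minus strand: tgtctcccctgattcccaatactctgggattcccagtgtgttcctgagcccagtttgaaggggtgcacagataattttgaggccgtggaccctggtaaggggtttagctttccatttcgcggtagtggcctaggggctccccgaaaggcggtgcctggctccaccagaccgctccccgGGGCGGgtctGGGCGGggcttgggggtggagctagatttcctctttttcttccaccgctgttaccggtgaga
Flt1, chr5:147726012-147726261, minus strand: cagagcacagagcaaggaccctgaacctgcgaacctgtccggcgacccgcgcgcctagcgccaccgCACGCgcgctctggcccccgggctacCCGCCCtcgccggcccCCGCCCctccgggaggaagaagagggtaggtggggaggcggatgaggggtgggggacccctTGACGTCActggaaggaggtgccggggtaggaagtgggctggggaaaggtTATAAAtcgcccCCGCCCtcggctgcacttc
Nrp1, chr8:128358823-128359072, plus strand: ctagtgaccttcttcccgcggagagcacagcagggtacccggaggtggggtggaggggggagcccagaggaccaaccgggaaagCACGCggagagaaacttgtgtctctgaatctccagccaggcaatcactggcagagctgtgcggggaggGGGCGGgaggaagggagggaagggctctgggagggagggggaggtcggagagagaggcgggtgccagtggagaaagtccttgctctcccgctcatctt
The Vegfa window shown lay at the RefSeq start nearest to the gene start in the count tables. Its 250 bases held 2 GC boxes and no hypoxia core, and bases further upstream were not searched. The window of another RefSeq start of Vegfa, 7206 bases from that gene start, held 2 hypoxia cores and 1 GC box. That of Flt1 held 3 GC boxes, 1 hypoxia core, 1 TATA box from 31 to 26 bases before the start and 1 cAMP response element from 81 to 74 bases before it. That of Nrp1 held 1 hypoxia core and 1 GC box. Of 32851 such windows of all genes, 38.6% held a hypoxia core, 32.7% a GC box, 12.4% a TATA box and 1.55% a cAMP response element. The starts shown for Vegfa, Flt1 and Nrp1 lie 8, 0 and 469 bases from the gene starts in the count tables. That of Nrp1 lies downstream of the gene start (128358604), so its window is inside the gene as counted. A match of letters is a description and not a site of binding.

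Other genes of these pathways were taken from 10 lists with 80 genes, of which 73 were tested. With treatment alone edgeR called 0 of the 73 at an adjusted p under 0.1 and 0 at an unadjusted p under 0.05. With the block, 3 were higher and 2 lower at an unadjusted p under 0.05, which is 6.85% against 3.21% of all genes, and edgeR called 0 at an adjusted p under 0.1. DESeq2 with the block called 1 of the 73, Cd36 (adjusted p = 0.00414), against 0.0507% of all genes, and 4 at an unadjusted p under 0.05, where Cd36 and Fabp4 were higher and Sema3c and Pdgfrb lower. Cd36 was at 100.8 FPKM with Vehicle and 125.3 with EGCG in replicate 1, and at 45.7 and 63.1 FPKM in replicate 2, so that EGCG was the higher within each replicate while the groups overlapped. The 3 higher in edgeR were the thrombospondin receptor Cd36 (log2 fold change 0.39, unadjusted p = 0.000999), the lipid chaperone Fabp4 (0.36) and the metalloproteinase Adamts1 (0.15), and the 2 lower were the EGFR ligand Ereg (-2.32) and Cpt1a (-0.17), which brings fatty acids into mitochondria. Fabp4 and Cpt1a belong to the list of PPAR targets, whose 5 tested genes had a median log2 fold change of 0.04 with the block. Angptl4 is a PPAR target too, though not on that list, and a link between them was not tested. Ereg rested on 28 reads in Vehicle replicate 1 and 0 in EGCG replicate 1, and on 175 and 94 reads in replicate 2.

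The receptors that partner these ligands were unequal in level. Nrp2, a second neuropilin, was at 68.4 and 75.1 FPKM in the Vehicle and EGCG libraries of replicate 1 and at 74.6 and 73.4 FPKM in those of replicate 2. Its interacting receptor Plxnd1 was between 55.8 and 94.2 FPKM. Kdr lay between 0.31 and 0.57 FPKM, below Flt1 in all 4 libraries. The PDGF receptor genes Pdgfra and Pdgfrb, between 0.12 and 0.79 FPKM, and Egfr, between 0.08 and 0.32 FPKM, were low, while Erbb4 had 9 reads in all and Pgf, another VEGFR1 ligand, had 49. Pdgfrb, a mural cell marker, was at 0.17 FPKM in EGCG replicate 1, where most stromal markers were low, against 0.69 to 0.79 FPKM in the other libraries. Pdgfra, on the same marker list, went the other way. It was highest in EGCG replicate 1, at 0.44 FPKM against 0.37 FPKM in its Vehicle library.

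Between replicates, 44 of the 73 pathway genes were called (60.3%, against 53.5% of all genes), 21 higher and 23 lower in replicate 2. Met was at 18.4 and 18.5 FPKM in the Vehicle and EGCG libraries of replicate 1 but at 2.03 and 2.95 FPKM in those of replicate 2, a log2 difference of -2.91 (standard error 0.14, adjusted p = 0.000182), so the transcripts of HGF and its receptor were both lower in replicate 2. The thrombospondin receptors Cd36 and Cd47 differed in opposite directions, by -1.06 (adjusted p = 0.00025) and 0.77 (adjusted p = 0.00038). Hif1a, the oxygen-regulated subunit of the hypoxia factor, was 1.05 higher in replicate 2 (adjusted p = 0.000369), as were its targets Egln3 (1.18) and Adm (4.19). Adm rested on 5 and 3 reads in the Vehicle and EGCG libraries of replicate 1, and on 77 and 139 reads in replicate 2. Of the list of 10 hypoxia targets outside angiogenesis, 4 were higher and 5 lower in replicate 2, and Slc2a1, which encodes the glucose transporter GLUT1, was 0.86 lower.

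**Figure D5:**
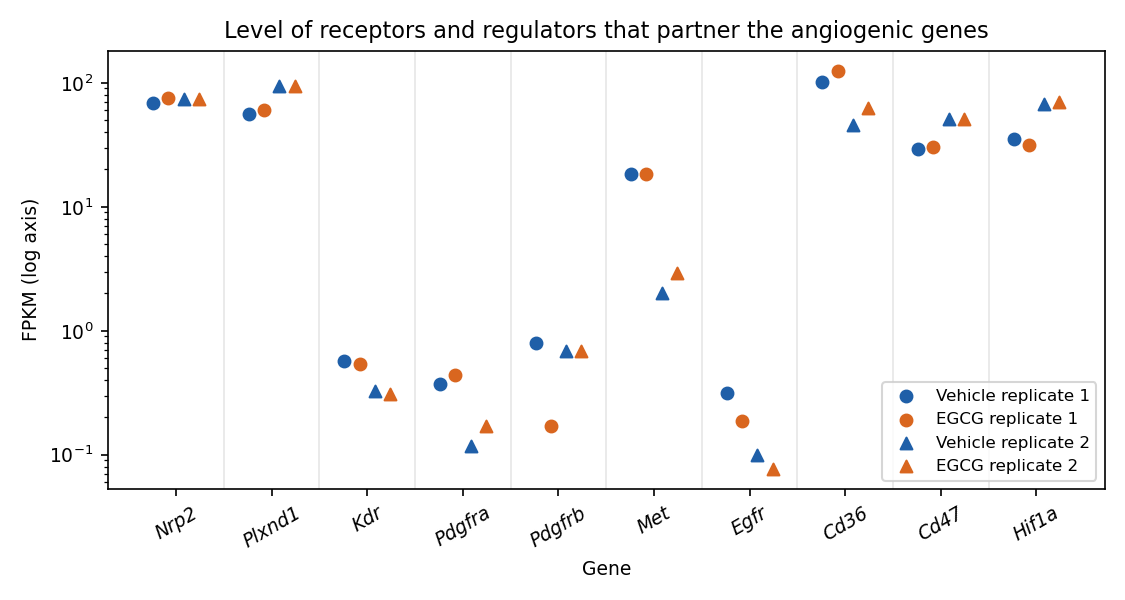
FPKM (log axis) of 10 receptors and regulators that partner the angiogenic genes in each of the 4 libraries, blue for Vehicle and orange for EGCG, circles for replicate 1 and triangles for replicate 2. Met lies at 18.4 and 18.5 FPKM in replicate 1 and at 2.03 and 2.95 FPKM in replicate 2, while Kdr, Pdgfra, Pdgfrb and Egfr lie below 1 FPKM in every library.

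Likeness of pattern was measured as the root mean square distance between log2 levels centred over the 4 libraries, among the other 9 members and the 73 pathway genes. The nearest to Vegfb was Pdgfb, at 0.03, and the nearest to Vegfa was the prolyl hydroxylase gene Egln3, at 0.14. Flt1 was nearest to Angpt4 (0.07), Hgf to Epas1 (0.06), Nrp1 to Pdk1 (0.07), Hbegf to Cd36 (0.11) and Pdgfa to Hbegf (0.14). The nearest to Angptl4 and Thbs1 were Angptl7 and Adm, at 0.34 and 0.39. Such distances grow with the spread of a gene over the libraries. Among the 10 genes that spread was largest for Thbs1 (1.56) and Angptl4 (0.97), against 0.11 for Vegfb. Over 4 libraries these distances are a description of level, in which the difference between replicates counts for most.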

How the data were processed

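RNA from 4 cultures of primary mouse microglia was sequenced as directional poly-A libraries. Gene counts, which the authors deposited without normalisation, came in 1 table per replicate beside gene lengths and positions. HISAT2 had been used for alignment (build GRCm38.p6) after removal of adapter and low-quality reads. Its version, the counting program, its strand setting and the annotation are not given in the sources used here, so reads of 3 members (Pdgfa, Pdgfb, Thbs1) may not be separable from genes on the opposite strand. Positions of 8 of the 10 members were the same in GENCODE release M21. Loci assembled separately in each table held between 0.11% and 0.156% of reads and were left out.

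Protein-coding genes with at least 10 reads summed over the libraries were tested with edgeR 4.0.16 (TMM, quasi-likelihood F test, Benjamini-Hochberg adjustment over 13811 genes, two-sided) in R 4.3.3. DESeq2 1.42.0 was an alternative. Standard errors were taken from the F statistic, and log2 levels used a prior count of 2. The replicate number was also fitted as a block, because the libraries of a number share a table and deviated together (r = 0.64 across genes). Nothing in the labels says that they share an animal, and 2 libraries against 2 cannot give a permutation p below 0.333. FPKM was computed from TMM-scaled counts and the deposited lengths. At the depth of these libraries, 3 reads correspond to between 0.0544 and 0.0936 CPM, for counting error only. Fits were tested on simulated data. Promoter windows are from RefSeq and were found for 6 members. The members and lists were chosen with earlier results of these data known. Genes named beside the members are their direct partners, Hif1a, pathway genes with an unadjusted p under 0.05 in either fit, up to 3 leading genes of a marker list and the nearest genes in pattern. Chosen after their values were seen were Plxnd1, Slc2a1, Sema3c, Cldn5, Emcn and Cdh5.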

Additional observations from a re-analysis of the deposited data

How the results depend on the processing

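No alternative called a member between EGCG and Vehicle at an adjusted p under 0.1, whether in test, scaling, filter, gene class, dispersion method, replicate block or libraries left out. At an unadjusted p under 0.05 the count was 0, but 2 in edgeR with the replicate block (Angptl4, Pdgfb), and between 0 and 1 with a library left out. The log2 fold change of Pdgfa turned from -0.02 to 0.0559 in edgeR and 0.0513 in DESeq2 with the replicate block, and the block turned no other sign. Leaving out 1 library turned the sign of 8 members, with ranges of -1.27 to 0.47 for Vegfa, -0.66 to 0.90 for Pdgfa, -0.35 to 0.36 for Hgf, -0.37 to 1.03 for Hbegf, -0.81 to 1.17 for Flt1, -0.22 to 0.34 for Nrp1, -1.98 to 0.42 for Angptl4 and -2.71 to 1.78 for Thbs1. These fits had no replicate term and an unequal share of each replicate in the groups, so the ranges also hold the difference between replicates. Angptl4, for example, turned to 0.42 without Vehicle replicate 2, although EGCG was lower within both replicates (-0.76 and -0.72). A lone library was assumed to vary like the other group. Between replicates, 8 or 9 members were called with DESeq2, DESeq2 size factors, total counts, either other filter, the newer dispersion method or replicate as the only term, with Pdgfb the one lost, and between 6 and 9 with a library left out, where replicate was again the only term, a choice made after seeing the data. The lowest, 6, was without Vehicle replicate 2, where Vegfa, Angptl4 and Pdgfb were lost. The number of all tested genes called between replicates moved with the setting as well. Where no library was left out it lay between 4969 with DESeq2 and 7856 with total counts, against 7382 in the main fit. Depth limits Angptl4 most, with 42 reads in EGCG replicate 1.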
